A study of Mus musculus with 6 samples.

Results

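The 41 chaperone genes described here are those of the count table that encode the cytosolic chaperonin CCT (8 genes), the co-chaperone prefoldin (5), other chaperones and co-chaperones of the cytosol (14), chaperones of mitochondria (4) and chaperones of the endoplasmic reticulum, or ER (10). They were chosen by gene symbol, and all 41 were found among the 20654 genes of the table. The RNA came from muscle satellite cells (MuSCs), the stem cells of skeletal muscle, in 3 libraries labelled wild type and 3 labelled *Piezo1* cKO, hereafter the cKO-labelled libraries. *Piezo1* encodes a mechanosensitive ion channel, and each comparison asks how its conditional deletion in MuSCs changed the transcripts of these genes.

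Both groups were of the C57BL/6 strain. The study gives cKO mice as *Piezo1* flox/flox with *Pax7* CreERT2/+. A figure legend names the controls of the sequencing as *Pax7* CreERT2/+, and for other experiments the study gives such controls as *Piezo1* +/+. By that legend both groups carried the tamoxifen-inducible Cre, driven from the *Pax7* locus that marks MuSCs. The labels call the controls wild type. The study describes daily tamoxifen injections of the mice to induce the deletion before MuSCs were isolated. MuSCs were sorted as VCAM1+, CD31-, CD45- and Sca1- cells and cultured for 3 d in growth medium. The medium held 30% serum, chicken embryo extract, basic fibroblast growth factor at 10 ng/ml and 1 µM 4-hydroxytamoxifen, all of which both groups received. For each library, 500 pg of RNA was reverse transcribed from oligo-dT primers with unique molecular identifiers (UMIs), tags that mark each cDNA molecule, and amplified by 12 cycles of PCR. Each count is thus 1 captured molecule and not its PCR copies, and priming from the poly(A) tail places it near the 3' end. The labels do not say whether the 3 libraries of a group came from separate mice, and p-values measure only the spread between these libraries, which may be technical.

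The wild type libraries 1 to 3 held 740936, 931168 and 891531 counts, and the *Piezo1* cKO libraries 810096, 726378 and 769295. Levels are given as CPM, counts relative to a library size of 1e6 after TMM scaling in edgeR. The smallest level taken as measured, 3 counts, was 3.22 to 4.13 CPM before TMM scaling, depending on the library, and covers counting error only. *Piezo1* itself had 11, 5 and 6 counts in the wild type libraries and 7, 12 and 9 in the cKO-labelled libraries, so its counts did not check the labels. Which part of the transcript is deleted and whether these 3' counts lie within it was not tested.

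Cultured MuSCs become proliferating myoblasts, and the 8 MuSC and myoblast markers were at different levels in these libraries. The myogenic factor *Myod1* had 1569, 1366 and 1441 CPM in wild type and 1489, 1087 and 1353 CPM in the cKO-labelled libraries. *Pax7*, which marks quiescent and early activated MuSCs, had 10, 26 and 19 counts against 16, 5 and 12, and *Myf5* had 46.2 ± 17.7 CPM against 56.2 ± 6.99 CPM (SD, n = 3). *Vcam1* (log2 fold change -0.45, adjusted p = 0.185 by edgeR) and *Sdc4* (-0.53, adjusted p = 0.0609) were lower and *Cdh15* (0.53, adjusted p = 0.118) was higher in every cKO-labelled library. Most markers of the cells that the sort removes were near 0. The 5 endothelial markers in the table summed to at most 14 counts per library, with *Tek* the most abundant over all libraries and *Tie1* at 0 throughout, and the 4 Schwann and glial markers summed to at most 6 counts. The 3 haematopoietic markers in the table, led by *Cd68*, summed to between 7 and 25 counts. The 5 fibro-adipogenic markers in the table summed to 292, 380.4 and 419 CPM in wild type and to 269, 330.2 and 341 CPM in the cKO-labelled libraries, led over all libraries by *Gsn*, with *Pi16* at 0 throughout. Its members went opposite ways, since *Cd34*, which MuSCs also express, had 125 ± 59.8 CPM in wild type against 42.1 ± 10.2 CPM (SD, n = 3) without overlap (log2 fold change -1.59, adjusted p = 0.181 by edgeR and 0.000824 by DESeq2), whereas *Gsn* had 229.6 ± 61.1 CPM against 259 ± 41.5 CPM and *Ly6a* 2, 2 and 3 counts against 5, 8 and 9. The 4 smooth muscle and pericyte markers summed to 44.6, 32.3 and 39.0 CPM against 59.6, 64.7 and 94.1 CPM, led by *Cspg4*, and did not overlap between the groups. The 7 immediate early genes, which respond to handling stress, summed to 715, 703 and 713 CPM against 734, 688 and 777 CPM. They were led by *Jun*, and these sums overlapped between the groups. Within this list *Egr1* was higher in every cKO-labelled library (log2 fold change 0.55, adjusted p = 0.159 by edgeR), as were 8.2% of all genes. *Jun* had a log2 fold change of -0.24, with overlapping groups. The part of any of these lists in the results was not tested.

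cKO-labelled library 2 stood apart in its muscle differentiation markers. The 9 such markers in the table, which include *Myog*, *Acta1* and *Mylpf* and of which none was at 0 over the 6 libraries, summed to 335, 114 and 291 CPM in wild type and to 578, 1702 and 757 CPM in the cKO-labelled libraries, with *Acta1* the most abundant over all libraries. The same library had the lowest summed level of the chaperone genes. Medians without it are therefore given beside the results.

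Chaperones bind unfolded or partly folded proteins and help them reach their native state, usually by cycles of ATP hydrolysis. CCT is a ring-shaped chaperonin of the cytosol, and its best known clients are actin and tubulin, which prefoldin hands to it. The HSP70 proteins work with J-domain co-chaperones of the DNAJ families in the cytosol, in mitochondria and in the ER, where each compartment has its own HSP70 and where calnexin, calreticulin and the protein disulphide isomerases also fold secreted and membrane proteins. Muscle cells need chaperones for the folding of the actin and myosin of their contractile apparatus.

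Cytosolic and mitochondrial chaperone genes are known targets of heat shock factor 1, which binds the heat shock element, and ER chaperone genes are known targets of the unfolded protein response, in which ATF6 acts with NF-Y at the ER stress element. Both motifs were searched on both strands of the 250 bases upstream of each RefSeq gene start (GRCm38.p6), a window that was found for 36 of the 41 genes. No window was found for *Cct4*, *Pfdn1*, *Hspa8*, *Hyou1* and *Hspa9*. The ER stress element, written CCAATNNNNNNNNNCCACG, was in 0.113% of the 32851 windows of all genes. It was in the windows of 6 of the 9 ER chaperone genes searched, and in no window of the other compartments. The sites of these 6 genes are shown because they share this element, which few other genes have in this window. The stretches of 30 bases lie at chr2:34772020-34772049 on the plus strand (*Hspa5*), chr10:86705632-86705661 and chr10:86705527-86705556 on the minus strand (*Hsp90b1*, which has 2 matches), chr8:84847069-84847098 on the minus strand (*Calr*), chr12:17266486-17266515 on the plus strand (*Pdia6*), chr11:50325794-50325823 on the minus strand (*Canx*) and chr14:118937822-118937851 on the plus strand (*Dnajc3*). Each is written 5' to 3' on the strand of its gene, and capitals mark the match, which is the reverse complement of the letters in *Calr* and in the second *Hsp90b1* stretch.
Hspa5: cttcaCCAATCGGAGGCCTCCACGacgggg
Hsp90b1, first match: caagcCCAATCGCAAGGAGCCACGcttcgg
Hsp90b1, second match: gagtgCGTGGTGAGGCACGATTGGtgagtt
Calr: caacgCGTGGTCGACCCTCATTGGcccata
Pdia6: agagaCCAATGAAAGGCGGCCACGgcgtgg
Canx: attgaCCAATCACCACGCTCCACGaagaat
Dnajc3: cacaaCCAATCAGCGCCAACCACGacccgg

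The *Hspa5* match lies 65 to 47 bases upstream of the RefSeq start and within the first exon that the GENCODE M21 annotation gives for this gene, which begins further upstream. The other matches lie in no annotated exon. The first 5 letters of this element are also the CCAAT box, which alone was in 33.8% of all windows and in all 9 ER windows. The second element of the unfolded protein response, TGACGTGG, was in 0.563% of all windows and in none of those of the chaperone genes.

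The heat shock element, written GAANNTTCNNGAA or TTCNNGAANNTTC, was in 0.466% of all windows and in those of *Hspd1*, *Hspe1* and *Dnajb6*. *Hspd1* and *Hspe1*, which encode the mitochondrial chaperonin and its lid, lie head to head on chromosome 1. The stretch chr1:55088053-55088082 is upstream of *Hspe1* and of 1 of the 2 *Hspd1* starts with a window. From the other *Hspd1* start, where the genes overlap by 112 bases, it lies inside the gene, and the window upstream of that start had 0 matches. The stretch is shown on the plus strand, that of *Hspe1*, and its capitals mark 2 overlapping matches, 89 to 72 bases upstream of the *Hspe1* start and within an exon of the transcript *Hspd1*-202.
Hspe1 and Hspd1: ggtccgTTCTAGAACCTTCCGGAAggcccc

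A motif match is a description of the sequence, and binding was not measured. No match means only that these letters were not in the window, since heat shock elements also occur further away and in other spacings.

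Of the 41 genes, 40 passed the filter on low counts and were tested with edgeR's quasi-likelihood test among 8551 genes. None of the 40 passed an adjusted p under 0.05, with adjusted p from 0.162 to 0.992, where 0.784% of all genes tested passed it (0.468% higher and 0.316% lower). DESeq2, which called 0.674% of the 4007 genes it adjusted, and limma-voom, which called 0.842%, called none of the chaperone genes either. Of the 40, *Hspa1b*, *Bag2* and *Hyou1* were given no adjusted p by DESeq2. At an unadjusted p under 0.05, 12 of the 40 were lower in the cKO-labelled libraries (background 5.78%) and none was higher (background 6.14%). Of the 12, 10 had a mean of 500 CPM or more, where 25.6% of all genes were lower at this p. The other 2 had a mean of 200 to 500 CPM, where 13.4% of all genes were.

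Levels were lower in the cKO-labelled libraries for most of these genes. The log2 fold change was negative for 31 and positive for 9 of the 40, with a median of -0.20 and a range from -0.43 to 0.28. The median of all genes tested was 0 and 49.8% were negative, a share that rose with abundance. At 500 CPM or more it was 89.6% of all genes against 14 of 15 chaperone genes, and from 200 to 500 CPM 71.5% against 12 of 14. From 50 to 200 CPM it was 49.7% against 4 of 9, and under 50 CPM 41.8% against 1 of 2. In 18 genes every cKO-labelled library was below every wild type library (8.31% of all genes), in 1 gene, *Dnajb11*, every one was above (8.2% of all genes), and in 21 the groups overlapped. Without cKO-labelled library 2 the median was -0.19. Leaving out a library can hardly lower the count of genes without overlap, so that count is not read as stability. With cyclic loess normalisation, which levels fold changes along abundance, the median was -0.08, and 9 genes were lower in every library against 7.33% of all genes.

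Abundant genes as a whole had lower levels in these libraries, and this is the background against which the chaperone genes, many of which are abundant, have to be read. Among the 317 genes with a mean of 500 CPM or more, the median log2 fold change was -0.20 and 37.2% were lower in every cKO-labelled library. Of the 15 chaperone genes in that class, 13 were lower in every library and their median was -0.31. In the class from 200 to 500 CPM, the median of all 866 genes was -0.10 and 18.1% were lower in every library, against a median of -0.16 and 4 of 14 for the chaperone genes. From 50 to 200 CPM the 9 chaperone genes had a median of 0.15, with 4 of them negative, where the median of all 3516 genes was 0. In that class 1 of the 9 was lower in every library (7.31% of all genes), and under 50 CPM neither of the 2 was (4.65% of 3852). Whether abundance, the differentiation markers or the deletion carried the difference was not tested.

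**Figure D1:**
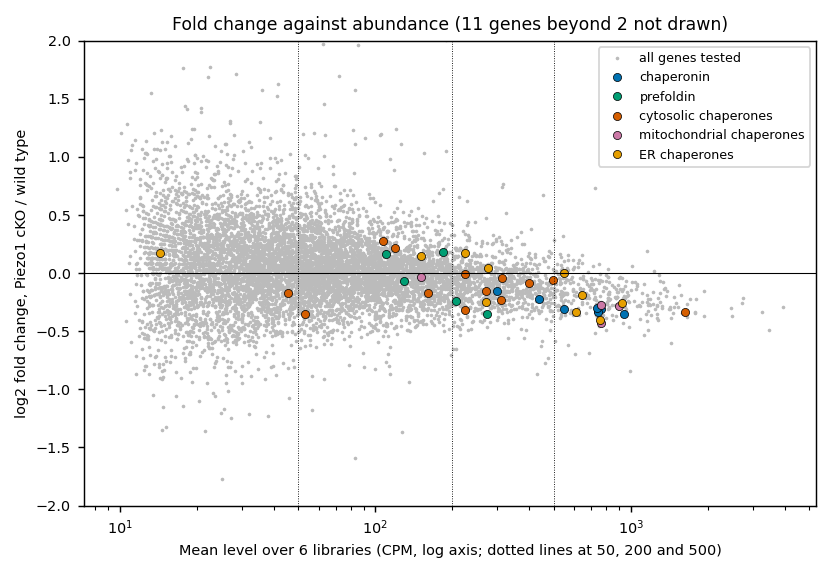
log2 fold change of each gene tested, *Piezo1* cKO against wild type, against its mean level over the 6 libraries in CPM on a log axis. Grey points are the genes tested apart from 11 with a value beyond 2 in size, which are not drawn, coloured points are the 40 chaperone genes by compartment, and dotted lines stand at 50, 200 and 500 CPM. At 500 CPM and above the grey points lie mostly below 0, with a median of -0.20, and the 15 chaperone genes there have a median of -0.31.

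The chaperone genes together held 1.79, 1.84 and 1.77% of all counts in the wild type libraries and 1.65, 1.52 and 1.64% in the cKO-labelled libraries. The groups did not overlap in this share, and cKO-labelled library 2 was the lowest. In these bulk samples, fewer cells of a type and less RNA per cell cannot be told apart.

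**Figure D2:**
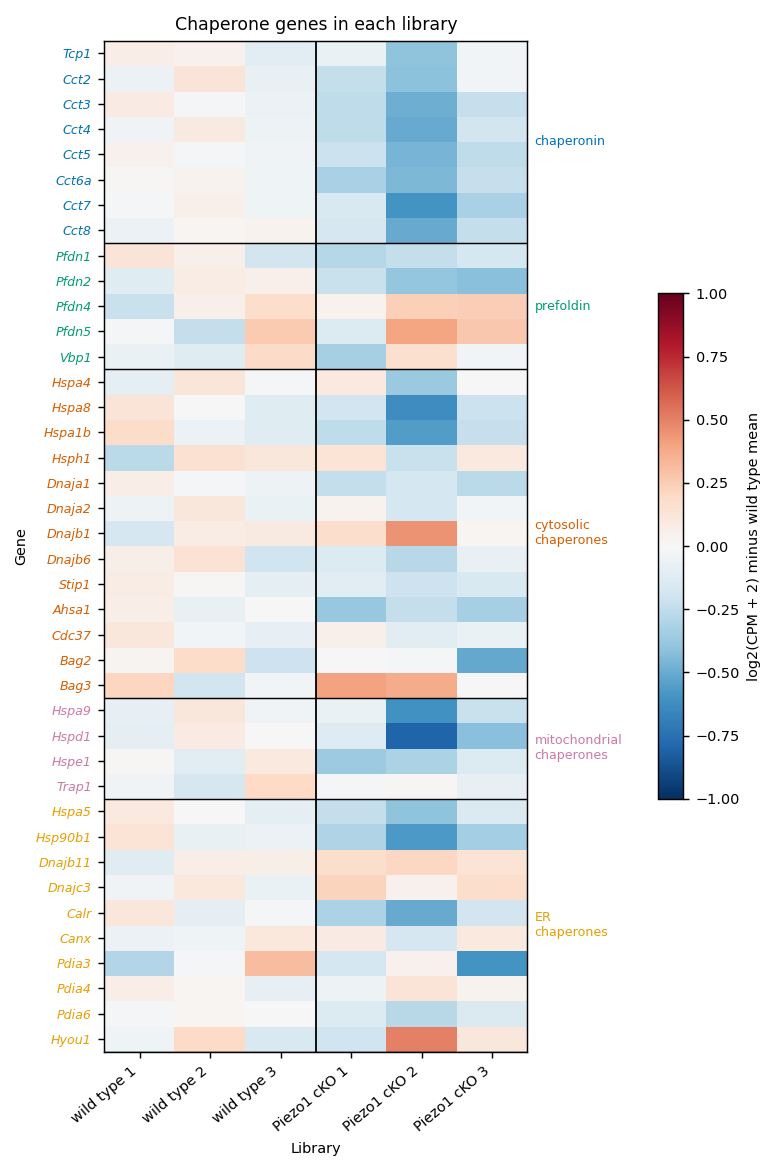
Level of the 40 tested chaperone genes (rows, grouped by compartment) in each library (columns), as log2(CPM + 2) minus the mean of the 3 wild type libraries. Blue is below and red above the wild type mean, and the CCT rows are blue in all 3 cKO-labelled libraries, deepest in library 2.

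The 8 CCT genes all had lower mean levels in the cKO-labelled libraries, and most genes of their abundance classes had negative log2 fold changes. None passed the adjusted threshold, and *Cct2* and *Tcp1* overlapped between the groups. Each of the 8 genes encodes 1 subunit of the ring, and each lies on a different chromosome. Their summed level was 5787, 5904 and 5605 CPM in the wild type libraries and 4964, 4094 and 4954 CPM in the cKO-labelled libraries. All 3 of the latter were below all 3 wild type libraries, with library 2 the lowest. The group means were 5765 ± 150.5 and 4671 ± 499 CPM (SD, n = 3), 19% lower in the cKO-labelled libraries, where the summed level of all genes tested was 5.15% lower on the same scale.

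All 8 log2 fold changes were negative, from -0.35 to -0.16, with a median of -0.31, and -0.23 without cKO-labelled library 2. Of all genes, 89.6% were negative at 500 CPM or more, the class of 6 subunits. From 200 to 500 CPM, the class of *Cct2* and *Tcp1*, 71.5% were. With cyclic loess the median was -0.13. No subunit passed the adjusted threshold (adjusted p from 0.276 to 0.703, edgeR). The 6 subunits with no overlap between the groups, *Cct3*, *Cct4*, *Cct5*, *Cct6a*, *Cct7* and *Cct8*, were the 6 with a mean of 500 CPM or more, where 37.2% of all genes were lower in every cKO-labelled library (8.31% over all classes).

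*Cct7*, which encodes the eta subunit, had 1044, 1089.7 and 1018 CPM in wild type and 944, 693 and 836 CPM in the cKO-labelled libraries. Its log2 fold change of -0.35 (SE 0.14) was the most negative of the subunits with TMM scaling, with an adjusted p of 0.276 by edgeR. *Cct6a*, for the zeta subunit, had 838, 852 and 809 CPM against 664, 609 and 709 CPM, a log2 fold change of -0.33 (SE 0.14). In both genes all 3 cKO-labelled libraries were below the lowest wild type library, and library 2 was the lowest of all.

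*Cct3* (gamma subunit) had 877, 814 and 794 CPM in wild type and 692, 590.4 and 704 CPM in the cKO-labelled libraries. *Cct5* (epsilon) had 870.0, 837 and 825 CPM against 728, 612 and 708 CPM. *Cct8* (theta) had 784, 828 and 837 CPM against 728, 573 and 693 CPM. These 3 genes had a tight wild type group and a lower group led downwards by library 2, with log2 fold changes of -0.32, -0.31 and -0.30 (SE 0.14 each).

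*Cct4* (delta) had 591, 645 and 583 CPM in wild type against 508, 427 and 534 CPM, a log2 fold change of -0.31 (SE 0.14). The 2 remaining subunits overlapped between the groups. *Cct2* (beta) had 471 ± 37.4 CPM against 404 ± 55.2 CPM (SD, n = 3), a log2 fold change of -0.22 (SE 0.13). *Tcp1* (alpha) had 316 ± 21.0 CPM against 283 ± 39.1 CPM, a log2 fold change of -0.16 (SE 0.14). Both had 1 cKO-labelled library, library 3, above the lowest wild type library, and in *Tcp1* library 1 was above it too.

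**Figure D3:**
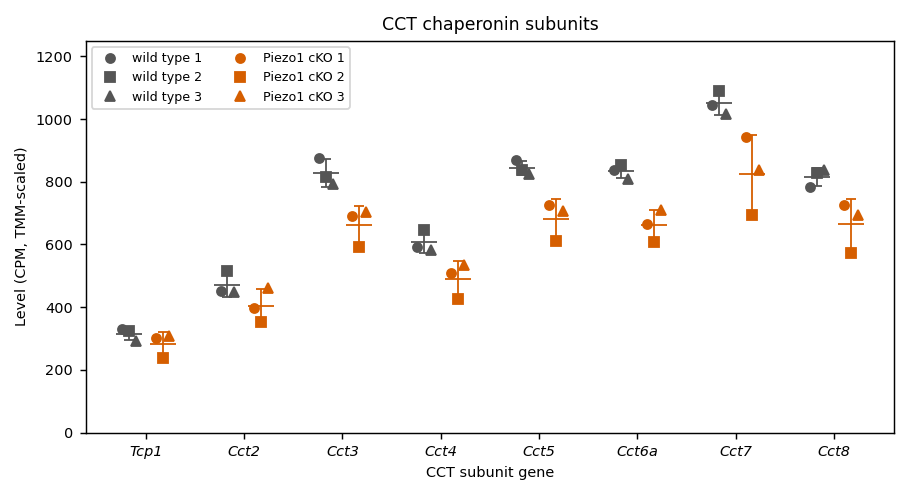
Level of each CCT subunit gene in CPM (TMM-scaled, linear axis from 0) in the 3 wild type libraries (grey) and the 3 cKO-labelled libraries (orange), with 1 symbol per replicate number and the mean ± SD of each group. cKO-labelled library 2 (orange square) is the lowest point for all 8 subunits, and the groups are separate for *Cct3* to *Cct8*.

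The share of each subunit in the counts of the complex was also set side by side. Of the counts of the 8 genes, *Cct7* took 18.0, 18.5 and 18.2% in wild type and 19.0, 16.9 and 16.9% in the cKO-labelled libraries. *Tcp1* took 5.72, 5.50 and 5.20% against 6.08, 5.81 and 6.23%. The share of *Tcp1* was higher in every cKO-labelled library, and for the other 7 subunits the groups overlapped. Oligo-dT capture differs between transcripts, so these shares do not give the proportions of the transcripts themselves.

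Over the 6 libraries, the log2 levels of the CCT genes went up and down together. The correlation of 2 subunits had a median of 0.91 over 28 pairs (range 0.78 to 0.99), and of 0.82 (0.57 to 0.96) once the group means were taken out. The medians were 0.40 among the 4 mitochondrial genes, 0.31 among the 13 cytosolic genes tested, -0.04 among the 5 prefoldin genes and -0.08 among the 10 ER genes. With the group means taken out they were -0.16, 0.15, -0.33 and -0.05 in the same order. These values describe 6 libraries whose points share library preparation and depth. Outside CCT, the genes most like the mean of the CCT subunits were *Pdia6* (r = 0.98, n = 6 libraries), *Hspa8* (0.96) and *Hspa5* (0.95). The least like it were *Dnajb1* (-0.84) and *Dnajb11* (-0.76). *Pdia6*, *Hspa8* and *Hspa5* are of 500 CPM or more, as are most CCT genes, whereas *Dnajb1* and *Dnajb11* are below that level. The part of abundance in these correlations was not tested.

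Prefoldin, which captures newly made actin and tubulin chains for CCT, showed no common direction. Its 5 genes had a median log2 fold change of -0.06 (range -0.35 to 0.18), which was 0.02 when libraries were scaled by total counts and -0.19 without cKO-labelled library 2. *Pfdn2* had 282, 324 and 318 CPM in wild type and 262, 234 and 229 CPM in the cKO-labelled libraries. It was the only prefoldin gene with no overlap between the groups, at a log2 fold change of -0.35 (SE 0.14, adjusted p = 0.239 by edgeR), in the class from 200 to 500 CPM, where 18.1% of all genes were lower in every cKO-labelled library.

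*Pfdn1* had 245, 231 and 196 CPM in wild type against 183, 189 and 197 CPM, a log2 fold change of -0.24 (SE 0.14), and overlapped by a single library. *Pfdn5* had 168, 144 and 204 CPM against 155, 225 and 205 CPM, a log2 fold change of 0.18 (SE 0.15), with the groups mixed. *Pfdn4*, at 0.16 (SE 0.16), and *Vbp1*, which encodes the prefoldin 3 subunit, at -0.06 (SE 0.16), also overlapped. The reads of *Pfdn5* may be shared with the overlapping gene *Myg1*.

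In the cytosol outside CCT and prefoldin, the genes of HSP70 and HSP90 partners divided by member. Over the 13 genes tested the median log2 fold change was -0.15 (range -0.35 to 0.28), and 5 of them, *Hspa8*, *Hspa1b*, *Dnaja1*, *Stip1* and *Ahsa1*, were lower in every cKO-labelled library. The share of all genes was 37.2% in the abundance class of *Hspa8*, 18.1% in that of *Dnaja1*, *Stip1* and *Ahsa1* and 7.31% in that of *Hspa1b*. The median was -0.12 without cKO-labelled library 2 and -0.06 without wild type library 2. With cyclic loess it was -0.07.

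*Hspa8*, the constitutive HSP70 of the cytosol, had 1976, 1797 and 1658 CPM in wild type and 1583, 1170.2 and 1556 CPM in the cKO-labelled libraries. The groups did not overlap, and the log2 fold change was -0.33 (SE 0.15, adjusted p = 0.364 by edgeR), or -0.07 with cyclic loess. *Ahsa1*, which activates the ATPase of HSP90, had 260.3, 237 and 249 CPM against 190.1, 210.0 and 197 CPM. Its log2 fold change was -0.32 (SE 0.14, adjusted p = 0.317), its cKO-labelled libraries lay close together, and library 2 was the highest of them.

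*Dnaja1*, which encodes a J-domain partner of HSPA8, had 349.5, 332 and 322 CPM in wild type against 284, 296 and 277 CPM in the cKO-labelled libraries. Its log2 fold change was -0.23 (SE 0.13, adjusted p = 0.506 by edgeR), with no overlap between the groups and little spread within them. *Stip1*, the adaptor that joins HSP70 to HSP90, had 285 ± 17 CPM against 256 ± 8.97 CPM (SD, n = 3), a log2 fold change of -0.15 (SE 0.13). *Hspa1b*, one of the heat-inducible HSP70 genes, had 59.6 ± 7.04 CPM against 46.5 ± 5.95 CPM, a log2 fold change of -0.35 (SE 0.22).

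The other heat-inducible HSP70 gene, *Hspa1a*, did not pass the filter, with 2, 14 and 13 counts in wild type and 8, 9 and 6 in the cKO-labelled libraries. Its coding sequence is nearly identical to that of *Hspa1b*, so how their reads were divided is uncertain. *Bag3* and *Dnajb1*, both known heat shock targets, had positive log2 fold changes. *Bag3*, a co-chaperone of HSP70 in selective autophagy, had 97.1 ± 13.9 CPM in wild type against 117 ± 17.4 CPM (SD, n = 3), a log2 fold change of 0.28 (SE 0.17). *Dnajb1* had 110.2 ± 10.8 CPM against 129 ± 20.0 CPM, a log2 fold change of 0.22 (SE 0.16). Both overlapped between the groups.

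The remaining 6 cytosolic genes also overlapped, with log2 fold changes between -0.17 and 0. They were *Bag2* and *Dnajb6* (both -0.17), *Hspa4* (-0.08), *Dnaja2* (-0.06), the HSP90 co-chaperone gene *Cdc37* (-0.04) and the HSP110 gene *Hsph1* (0).

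Of the 4 mitochondrial genes, the 3 of the matrix folding machinery had lower mean levels in the cKO-labelled libraries, and *Trap1* was near 0 in its log2 fold change. Those 3 are of 500 CPM or more, where 89.6% of all genes had negative values. The median of the 4 log2 fold changes was -0.28 (range -0.43 to -0.03), and it was -0.20 without cKO-labelled library 2 and -0.09 with cyclic loess. *Hspd1*, for the mitochondrial chaperonin HSP60, had 823, 928 and 876 CPM in wild type and 799.8, 502 and 655 CPM in the cKO-labelled libraries. The groups did not overlap, although cKO-labelled library 1 was close to the lowest wild type library. Its log2 fold change of -0.43 (SE 0.14, adjusted p = 0.162 by edgeR) was the most negative of the 40 genes with TMM scaling. With cyclic loess *Hspa1b*, at -0.39, was more negative. The value of *Hspd1* was -0.60 with an adjusted p of 0.0173 when cKO-labelled library 1 was left out, -0.27 with an adjusted p of 0.608 without cKO-labelled library 2, and -0.26 with cyclic loess, and these adjusted p are the lowest and highest of the settings run.

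*Hspe1*, for HSP10, the lid of that chaperonin, had 846, 775 and 895 CPM in wild type and 649, 672 and 761 CPM in the cKO-labelled libraries. Here library 1 was the lowest and library 3 the highest of the latter, unlike in *Hspd1*, and the log2 fold change was -0.27 (SE 0.14, adjusted p = 0.426 by edgeR). *Hspa9*, the mitochondrial HSP70, had 935, 1069.7 and 967 CPM against 946, 649.8 and 845 CPM, a log2 fold change of -0.28 (SE 0.14, adjusted p = 0.426). Its groups overlapped through cKO-labelled library 1, and library 2 was far below the rest. *Trap1*, the mitochondrial HSP90, had 153 ± 20.3 CPM against 149 ± 5.28 CPM (SD, n = 3), a log2 fold change of -0.03 with a 95% interval from -0.33 to 0.26.

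By symbols made of the gene name and -ps, the annotation names 5 pseudogenes of *Hspd1* and 6 of *Hspe1*, and 1 each of *Tcp1*, *Cct3*, *Dnaja1*, *Hspa9* and *Calr*. Pseudogenes under other symbols were not searched for, so further members may have copies too. How reads matching several copies were counted is not given in the sources used here, so the levels of genes with copies are uncertain. The same holds for genes that overlap an expressed gene on the opposite strand, since the strand setting is not given: *Hspd1* with *Hspe1*, *Cct6a* with *Psph*, *Cct7* with *Pradc1*, *Cct8* with *Usp16*, *Tcp1* with *Mrpl18* and *Dnaja1* with *Smu1*.

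**Figure D4:**
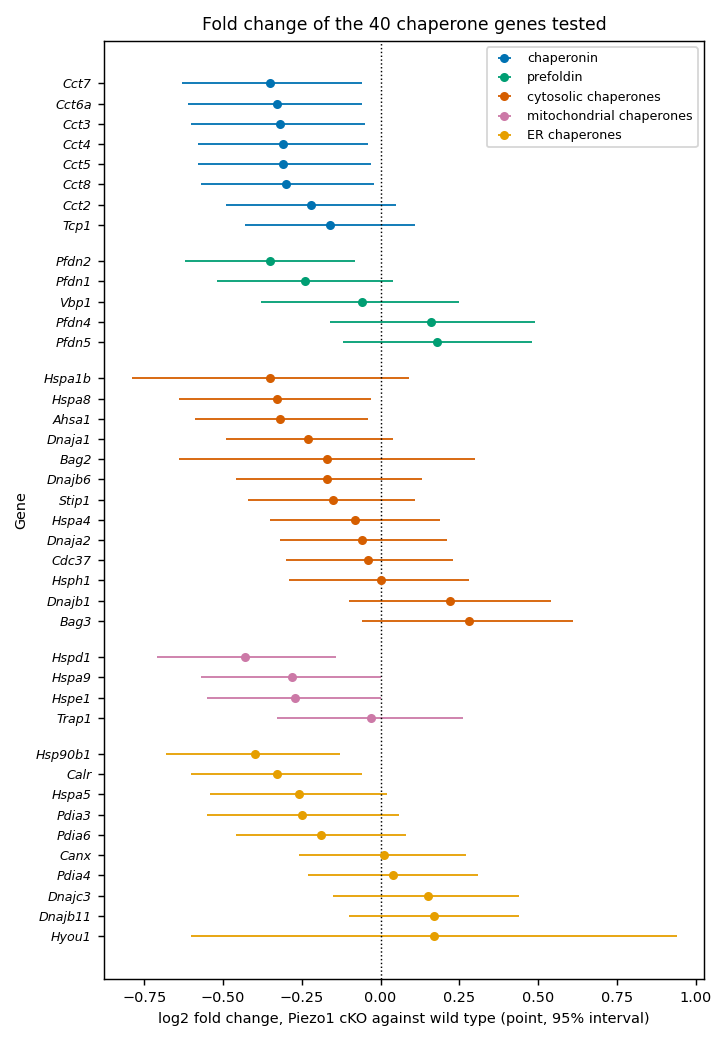
log2 fold change of each of the 40 tested chaperone genes, *Piezo1* cKO against wild type, from edgeR (point) with its 95% interval (line), grouped by compartment and ordered within it. Points of all 8 CCT genes and all 4 mitochondrial genes lie below 0, those of the ER genes are divided, and the interval of *Hyou1*, at 11.4 to 19.8 CPM, is the widest. Of all genes, 89.6% were below 0 at 500 CPM or more, 71.5% from 200 to 500 CPM and 49.7% from 50 to 200 CPM.

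The ER chaperone genes divided evenly in sign, 5 negative and 5 positive, with a median log2 fold change of -0.09 (range -0.40 to 0.17). The median was -0.02 when libraries were scaled by total counts, 0.01 with cyclic loess and -0.10 without cKO-labelled library 2. The 5 negative genes include 4 with no overlap between the groups, *Hspa5*, *Hsp90b1*, *Calr* and *Pdia6*, all of 500 CPM or more, where 37.2% of all genes were lower in every library. *Canx* was the fifth ER gene in that class, and its groups overlapped.

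*Hsp90b1*, which encodes GRP94, the HSP90 of the ER, had 949, 819.8 and 832 CPM in wild type and 702, 579.8 and 682 CPM in the cKO-labelled libraries. All 3 of the latter were below the wild type libraries, with a log2 fold change of -0.40 (SE 0.14, adjusted p = 0.167 by edgeR and 0.09 by DESeq2) that was -0.22 with cyclic loess. *Calr*, for the lectin chaperone calreticulin, had 731, 634 and 667 CPM against 541, 477 and 596 CPM. It too had separate groups, with a log2 fold change of -0.33 (SE 0.14, adjusted p = 0.281).

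*Hspa5*, for BiP, the HSP70 of the ER and a widely used readout of the unfolded protein response, had 1076, 1006 and 943 CPM in wild type and 854, 761 and 912 CPM in the cKO-labelled libraries. The gap between the groups was narrow, with a log2 fold change of -0.26 (SE 0.14, adjusted p = 0.466 by edgeR), or -0.05 with cyclic loess. *Pdia6*, a disulphide isomerase that works with BiP, had 689 ± 9.75 CPM against 605 ± 33.1 CPM (SD, n = 3), a log2 fold change of -0.19 (SE 0.14). With cyclic loess the value of *Pdia6* was -0.01.

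*Dnajb11*, a J-domain partner of BiP, was the only one of the 40 genes with a higher level in every cKO-labelled library, at 238, 243 and 232 CPM against 193, 219.7 and 219.6 CPM in wild type. The share of all genes was 8.2%, and 2.42% in the class from 200 to 500 CPM. The log2 fold change was 0.17 (SE 0.14, adjusted p = 0.675 by edgeR), and *Dnajb11* was picked out after its values were seen. *Dnajc3*, another J-domain partner of BiP, had a log2 fold change of 0.15 (SE 0.15), with 143.5 ± 9.15 CPM against 159 ± 9.97 CPM (SD, n = 3) and overlapping groups. BiP itself and its 2 J-domain partners in the list thus had values of opposite sign, and the difference between them was not tested.

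*Canx*, for the membrane-bound relative of calreticulin, had 547 ± 34.9 CPM in wild type against 549 ± 55.9 CPM (SD, n = 3), a log2 fold change of 0.01 with a 95% interval from -0.26 to 0.27. *Pdia4* had a log2 fold change of 0.04 (SE 0.13). *Pdia3*, the isomerase that works with calnexin and calreticulin, had widely spread libraries, 237, 287 and 360.1 CPM against 257, 299.8 and 191 CPM, and a log2 fold change of -0.25 (SE 0.15). *Hyou1*, the large HSP70-like exchange factor of BiP, had the fewest counts of the 40 genes and a log2 fold change of 0.17 (SE 0.39).

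The levels can be set against the ER stress element shown above. Of the 6 genes with a match, *Hspa5*, *Hsp90b1*, *Calr* and *Pdia6* were lower in every cKO-labelled library and *Canx* and *Dnajc3* overlapped. The 4 lower genes are in the class of 500 CPM or more, where 37.2% of all genes were lower in every library. Of the 3 with a window and no match, *Pdia3* and *Pdia4* overlapped and *Dnajb11* was higher in every library, and all 3 are in the class from 200 to 500 CPM, where 18.1% of all genes were lower and 2.42% were higher in every library. The part of abundance in this division was not tested. Of the genes with a heat shock element, *Hspd1* and *Hspe1*, of 500 CPM or more, were lower in every library. *Dnajb6*, in the class from 50 to 200 CPM, where 7.31% of all genes were lower in every library, had 169 ± 20.6 CPM against 151 ± 11.1 CPM (SD, n = 3) with overlapping groups.

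**Figure D5:**
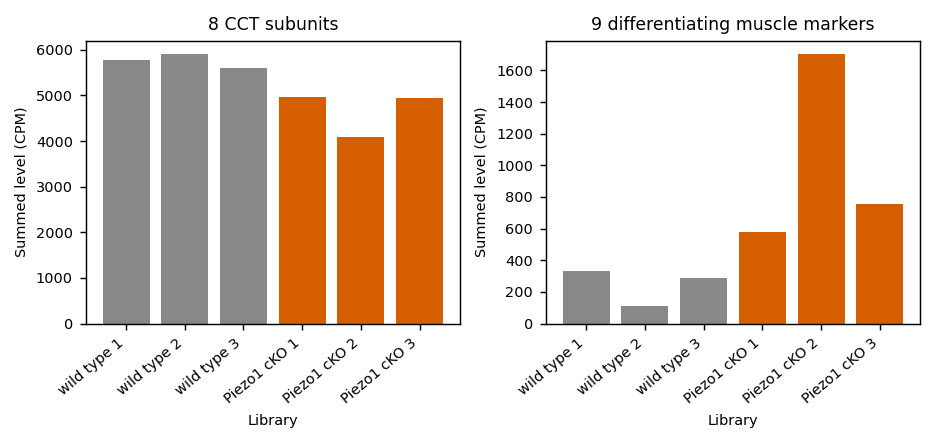
Summed level of the 8 CCT subunit genes (left) and of the 9 muscle differentiation markers in the table (right) in each library, in CPM on linear axes from 0, with 1 bar per library. cKO-labelled library 2 has the lowest CCT sum, 4094 CPM, and the highest marker sum, 1702 CPM.

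The differentiation markers went with the CCT levels by group as well as in that library. Their sum was higher in every cKO-labelled library than in any wild type library, and the CCT sum was lower. Within the cKO-labelled libraries, marker sums of 578, 757 and 1702 CPM stood beside CCT sums of 4964, 4954 and 4094 CPM, in inverse order. Within wild type, library 2 had the lowest marker sum, 114 CPM, and the highest CCT sum, 5904 CPM, but library 3 was below library 1 in both, with 291 and 335 CPM for the markers and 5605 and 5787 CPM for CCT. The part of differentiation in the chaperone levels was not tested.

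Other genes of the same pathways were read from 7 lists that hold 107 genes, of which 104 were in the table and 90 were tested. None of the 90 passed an adjusted p under 0.05 by edgeR, and DESeq2 called 1, *Hsp90aa1*. At an unadjusted p under 0.05, 6 of the 90 were lower (5.78% of all genes) and 4 higher (6.14% of all genes) in the cKO-labelled libraries. Over the 90 genes both counts were close to those shares. Of the 6 lower genes, 5 were among the 12 of cytosolic HSP90 and its partners. At this p, 25.6% of all genes of 500 CPM or more were lower, and 13.4% of those from 200 to 500 CPM, the classes of these 5. The median log2 fold change of the 90 was -0.04, near the 0 of all genes.

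The cytosolic HSP90 genes had lower levels in the cKO-labelled libraries. *Hsp90aa1*, the inducible form, had 1296, 1472 and 1217 CPM in wild type and 1053, 771 and 926 CPM in the cKO-labelled libraries. The groups were well apart, with a log2 fold change of -0.53 (SE 0.15) and an adjusted p of 0.0567 by edgeR and 0.00829 by DESeq2, in a range from 0.00829 to 0.23 over the settings run. With cyclic loess the log2 fold change was -0.31. *Hsp90ab1*, the constitutive form, had 1697, 1639.6 and 1550.4 CPM against 1389, 972 and 1370.1 CPM. Its log2 fold change was -0.39 (SE 0.15, adjusted p = 0.241 by edgeR), and the groups were separate with cKO-labelled library 2 the lowest. Of the 12 genes of HSP90 and its partners, 5 were lower in every cKO-labelled library (8.31% of all genes), and the median was -0.11. The 5 were *Hsp90aa1*, *Hsp90ab1*, *Fkbp4* and *Ptges3*, of 500 CPM or more, where the share of all genes was 37.2%, and *Ppid*, of 200 to 500 CPM, where it was 18.1%.

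The small heat shock proteins, which hold unfolded proteins without ATP, had a median log2 fold change of 0.14 over their 4 genes tested, of which 3 were positive. *Hspb6* had 46.0, 33.5 and 39.0 CPM in wild type and 68.4, 59.4 and 50.4 CPM in the cKO-labelled libraries, a log2 fold change of 0.60 (SE 0.23, adjusted p = 0.234 by edgeR) with separate groups. *Hspb1*, for HSP27, had 499 ± 105 CPM against 560.1 ± 58.0 CPM (SD, n = 3), a log2 fold change of 0.17 (SE 0.14).

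Among the heat shock factors, *Hsf2* had 6, 6 and 8 counts in wild type and 13, 13 and 12 in the cKO-labelled libraries, a log2 fold change of 1.00 (SE 0.42, adjusted p = 0.302 by edgeR) on few counts. *Hsf1*, whose product is the main factor of the heat shock response, had 112 ± 7.34 CPM against 94.9 ± 17.2 CPM (SD, n = 3), a log2 fold change of -0.23 (SE 0.17) with overlapping groups.

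The list of other ER folding and unfolded protein response genes had 32 genes tested, with a median of -0.02 and 14 positive and 18 negative values. *Txndc5*, a disulphide isomerase of the ER, had 253, 312 and 253 CPM in wild type and 224, 197 and 189.5 CPM in the cKO-labelled libraries, a log2 fold change of -0.42 (SE 0.14, adjusted p = 0.141 by edgeR). *Herpud1*, a target of the unfolded protein response that acts in ER-associated degradation, had 76.2, 77.0 and 88.6 CPM against 109, 89.8 and 131 CPM, a log2 fold change of 0.45 (SE 0.17, adjusted p = 0.241). In both genes the groups were separate, in opposite directions.

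The 3 other lists had medians near 0. The 20 other HSP70 and J-domain genes tested had a median of -0.01, with *Dnajc2*, a ribosome-associated J-domain protein gene, at -0.28 (SE 0.14) and *Dnajb2* at 0.48 (SE 0.26). The 7 prefoldin-like and CCT partner genes had a median of -0.06, with *Pfdn6*, a further prefoldin subunit gene, at -0.22 (SE 0.18) and *Txndc9* at -0.14 (SE 0.14). The 12 genes of mitochondrial folding and proteolysis had a median of -0.05, with *Clpb* at -0.27 (SE 0.17) and *Grpel1*, the exchange factor of mitochondrial HSP70, at -0.21 (SE 0.14).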

How the data were processed

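Transcripts of MuSCs were counted after 3 d of culture in 3 libraries labelled wild type and 3 labelled *Piezo1* cKO. The authors mapped reads to GRCm38 with STAR 2.7.9a, assigned them to genes with featureCounts 2.0.1 and counted UMIs with UMI-tools 1.1.1, and deposited these counts without normalisation, with 1 column per library. The aligner, counter and versions are those of the submitters' processing notes. The handling of reads that match several places and of strand is not given in the sources used here. Authors' methods name DESeq2 as their test, whose results were not used here.

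The 41 genes and all lists of other genes and markers were chosen with earlier results of these data known. Counts were analysed in R 4.3.3. Genes were filtered with edgeR 4.0.16 (filterByExpr, minimum count 10) to 8551, normalised by TMM and tested with its robust quasi-likelihood fit of *Piezo1* cKO against wild type over the 6 libraries, with Benjamini-Hochberg adjustment over all 8551 genes and a threshold of 0.05. All members could be named. Values per library were given for the 3 smallest p in each compartment and for up to 15 members whose groups do not overlap. They were also given for members failing the filter and for *Pdia3*, whose libraries were widely spread. Of each list of other genes the 2 genes with the smallest p were named, with values per library, group means or only log2 fold changes. Single comparisons of 3 against 3 libraries allow no two-sided exact permutation p under 0.1, so none is given. Log2 levels in the plot by library use log2(CPM + 2). The classes by abundance and the counts of members lower in every library under other settings were added after the data were seen.

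Depth was 726378 to 931168 counts per library. Pairs of libraries within a group differed by a chi-square of 1.64 to 2.61 per degree of freedom, so no library was a copy of another in its group. Pairs across the groups were not compared in this way. Same-numbered libraries did not deviate together (correlations -0.143, -0.203 and 0.0121), so replicate numbers were not taken to pair them. Alternatives were DESeq2 1.42.0, limma-voom (limma 3.58.1), DESeq2 size factors, total counts, cyclic loess with 3 iterations and other filters. Further settings were thinning all libraries to the smallest total, a replicate block and each library left out. A threshold of 0.1 on the adjusted p was applied to the main edgeR fit only. The calculations were tested on simulated data. Gene positions are from GENCODE M21 (GRCm38), and upstream windows from RefSeq (GRCm38.p6).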

Additional observations from a re-analysis of the deposited data

How the results depend on the processing

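The chaperone genes called by edgeR (0 of 40) remained at 0 under DESeq2, limma-voom, DESeq2 size factors, total counts, cyclic loess, both other filters and thinning. At an adjusted p under 0.1 the main edgeR fit also called 0. DESeq2 gave *Hspa1b*, *Bag2* and *Hyou1* no adjusted p, and its adjusted p for *Hsp90b1* was 0.09. With a library left out the count ranged from 0 to 1, the 1 being *Hspd1* without *Piezo1* cKO replicate 1. The log2 fold change of 31 of the 40 genes kept its sign in every setting, the exceptions being *Vbp1*, *Hspa4*, *Hsph1*, *Dnaja2*, *Cdc37*, *Trap1*, *Canx*, *Pdia4* and *Hyou1*. The median over the 40 genes of -0.20 was -0.13 with total counts and -0.08 with cyclic loess, and -0.24 to -0.16 with a library left out. The chaperonin median of -0.31 was -0.13 with cyclic loess and -0.35 to -0.23 with a library left out, and the mitochondrial median of -0.28 was -0.09 and -0.33 to -0.20. The ER median of -0.09 was -0.02 with total counts, 0.01 with cyclic loess and -0.13 to -0.04 with a library left out. With a library left out the cytosolic median lay between -0.20 and -0.06 and the prefoldin median between -0.19 and 0.06. The 18 members lower in every library labelled *Piezo1* cKO (8.31% of all genes) were 15 with total counts (5.09%), 15 with thinning (4.53%) and 9 with cyclic loess (7.33%). With a library left out they were 18 to 22 while the share of all genes was 11.9 to 15.8%, and since leaving out a library mostly keeps or adds such genes, this range is not read as stability.

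Of all genes, edgeR called 67 (40 higher, 27 lower). The count was 27 with DESeq2, 129 without a filter, 124 at an adjusted p under 0.1, and 6 to 174 with a library left out, the 6 without *Piezo1* cKO replicate 2 and the 174 without *Piezo1* cKO replicate 1. With total counts, 49 were higher and 18 lower. With a replicate block in the fit, 46 genes and 0 members were called, the median over the 40 genes was -0.21, and the compartment medians were as without it apart from -0.29 for the mitochondrial genes. Since the libraries share only a number, the block says nothing of pairs of mice. *Hsp90aa1* passed 0.05 with DESeq2, total counts, no filter, at least 10 counts in every library, thinning and without *Piezo1* cKO replicate 1, with log2 fold changes from -0.65 to -0.46. Depth limits *Hspa1a* and *Hyou1*, which had few counts, and the causes of these changes between settings were not tested.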
